A study of Mus musculus with 4 samples.

Results

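The 9 genes described here, Tpsab1, Tpsb2, Cma1, Mcpt4, Cpa3, Kit, Fcer1a, Ms4a2 and Hdc, encode the granule proteases, surface receptors and histamine enzyme by which mast cells are recognised. The set was selected on the Cre minus vector difference of the tryptase gene Tpsab1, which was strongly higher in G9a-deficient brown preadipocytes, and the question was whether other mast cell genes came with it. Members were all probe sets whose platform annotation holds 1 gene symbol that is among the 9. That gave 13 probe sets covering all 9 genes, of 45037 on the array after removal of controls. The array as a whole covered 18193 gene symbols in that way. Since that difference led to the choice, the values of Tpsab1 and of its paralogue Tpsb2 are given as a description without a test. The other 7 genes, with 10 probe sets, were named for their known role in mast cells.

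The study measured total RNA of immortalized brown preadipocytes, the precursors of brown fat cells, on 4 Affymetrix arrays. The cells were of a mixed C57/BL6-129 strain background, and the sample titles mark all of them, controls included, as G9af/f, which denotes a floxed G9a gene. The control group, labelled wild type, held 2 arrays of vector cells (vector 1 and 2), and the other group, labelled G9a knock out, held 2 arrays of Cre cells (Cre 1 and 2). The labels name neither how Cre was delivered nor whether a group's arrays are separate cultures. Xist, the RNA that silences an X chromosome, was bright on the array numbered 1 and dim on the array numbered 2 of each group, so the 2 arrays of a group did not hold RNA of the same cells. Ehmt2, the gene of G9a, read 2682 and 2688 signal units on the vector arrays and 953 and 912 on the Cre arrays. It did not pass without the pairing of the arrays by number (limma adjusted p = 0.227) and fell with it (limma adjusted p = 0.000281). Preadipocyte markers were uneven. The brightest, the collagen gene Col1a1, read 12924 and 11848 units on the vector arrays and 15187 and 13361 on the Cre arrays. Of 16 probe sets of such markers, 4 lay below the array median on all 4 arrays, as did 43.9% of all probe sets. Among these was 1 of Pdgfra, at 35.9 and 6.3 units on the vector arrays and 28.8 and 4.6 on the Cre arrays. A brighter Pdgfra probe set (1421917_at) read 247.5 and 81.7 on the vector arrays and 105.9 and 59.1 on the Cre arrays, above each array median. Cre minus vector, the Pdgfra probe sets ran from -0.95 to -0.27 in log2 units, and none passed (limma adjusted p = 0.999 over all probe sets).

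Mast cells arise from haematopoietic progenitors and complete their maturation in tissues, adipose tissue among them. Stem cell factor, acting on the receptor tyrosine kinase KIT, keeps them alive, and IgE bound to the high-affinity Fc receptor triggers the release of their granules. The granules hold histamine, tryptases, chymases and carboxypeptidase A3, stored on proteoglycan. Tpsab1 encodes the mouse tryptase mMCP-7 and Tpsb2 the tryptase mMCP-6, which lie side by side in the genome. C57BL/6 mice are known to carry a splice-site change that abolishes mMCP-7, whereas several other strains make the protein. RefSeq annotates Tpsab1 as a transcribed pseudogene in the C57BL/6J reference. Which allele the present cells carry was not analysed here, and an array signal does not show whether protein is made.

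Both chains of the IgE receptor that are specific to mast cells and basophils are represented, and their upstream sequences are shown. They were picked after the values below were seen, and a difference between the chains was not tested. Fcer1a encodes the IgE-binding alpha chain and Ms4a2 the signal-amplifying beta chain. The sequences come from RefSeq (GRCm38.p6) and span 250 bases before to 50 bases after the annotated start, on the strand of the gene. Capitals mark the motif AGATAA or its reverse complement TTATCT. These letters are a form of the DNA element read by GATA factors such as GATA2, a regulator of mast cell genes. Other forms of that element were not searched for.
Ms4a2, chr19:11623670-11623969, minus strand: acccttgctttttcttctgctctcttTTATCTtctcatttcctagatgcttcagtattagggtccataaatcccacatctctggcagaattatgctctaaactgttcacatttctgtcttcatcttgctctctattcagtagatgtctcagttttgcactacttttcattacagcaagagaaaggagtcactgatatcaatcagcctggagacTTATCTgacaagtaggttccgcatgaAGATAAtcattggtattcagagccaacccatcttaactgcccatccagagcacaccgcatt
Fcer1a, chr1:173227180-173227479, minus strand: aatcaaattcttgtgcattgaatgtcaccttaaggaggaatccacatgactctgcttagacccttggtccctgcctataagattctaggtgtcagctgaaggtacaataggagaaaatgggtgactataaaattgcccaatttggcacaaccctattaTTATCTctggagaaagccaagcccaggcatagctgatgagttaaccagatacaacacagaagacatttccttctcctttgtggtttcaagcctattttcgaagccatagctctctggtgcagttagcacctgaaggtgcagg
The Ms4a2 window holds the motif 3 times, beginning 224, 37 and 11 bases before the start, with no overlap between matches. The Fcer1a window holds it once, 92 bases before the start. The mast cell carboxypeptidase gene Cpa3 has a match 46 bases before its start. The windows of Hdc, Kit, Cma1 and Mcpt4 have no match to these exact letters. That does not show that they lack the GATA element in another form. The promoter table covered 7 of the 9 genes, without Tpsab1 and Tpsb2, and 11.2% of all 32851 promoters of the same length hold the motif. A match describes these letters only and is no evidence of binding.

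Values are the deposited MAS5 signals, 1 number per probe set and array on a linear scale. Array medians were 67.2 and 50.6 units for vector 1 and 2 and 78 and 52.5 for Cre 1 and 2. Differences are Cre minus vector on log2(signal + 16) after quantile normalization, which understates the change of dim probe sets. They are given with the standard error (SE, n = 2 against 2 arrays) of a limma fit over all probe sets. Signals of different probe sets do not rank their transcripts, since probes differ in affinity. In whole cultures, more cells of a type and more RNA per cell cannot be told apart.

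Among the tryptases, Tpsab1 stood far apart from its neighbour Tpsb2. The Tpsab1 probe set (1426175_a_at) read 57.9 and 66.1 units on vector 1 and 2, and 627 and 1102 units on Cre 1 and 2. Both Cre arrays were well above both vector arrays. The deposited signal was 10.8 times higher in Cre 1 than in vector 1 and 16.7 times higher in Cre 2 than in vector 2. After normalization the difference was 3.37 ± 0.38, or 10.3-fold, with 3.16 within number 1 and 3.57 within number 2. Within each array, Tpsab1 moved from the 47.6th and 54th percentile of all probe sets in vector 1 and 2 to the 78.6th and 85.5th in Cre 1 and 2. Array 2 exceeded array 1 by 0.46 in the vector group and by 0.87 in the Cre group. Ranked by the size of the rise, Tpsab1 was 12th among all 45037 probe sets.

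**Figure D1:**
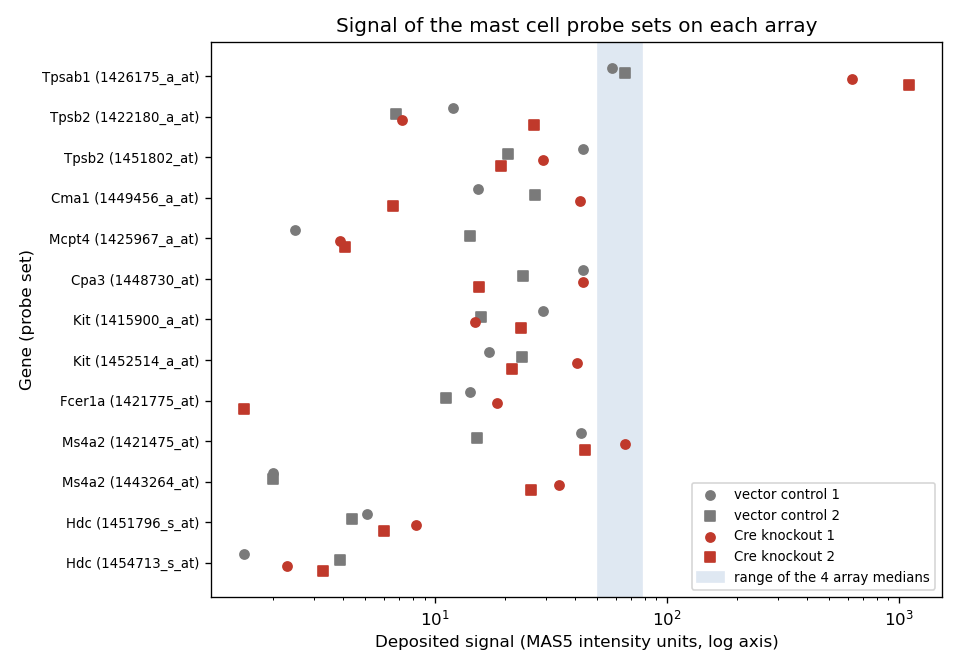
Deposited signal of each of the 13 mast cell probe sets on the 4 arrays (horizontal log axis, MAS5 intensity units; grey for vector control, red for Cre, circles for arrays numbered 1 and squares for arrays numbered 2), with the range of the array medians shaded. The Cre points of Tpsab1 lie at 627 and 1102, and no point of the other probe sets exceeds 65.8.

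Tpsb2, the tryptase that C57BL/6 mast cells do make, did not follow. Its probe set 1451802_at read 43.6 and 20.6 units on vector 1 and 2 and 29.2 and 19.3 on Cre 1 and 2. The deposited signals of the groups overlapped, and after normalization the difference was -0.34 ± 0.30, with -0.58 and -0.098 within numbers 1 and 2 and both Cre arrays below both vector arrays. The second probe set, 1422180_a_at, read 11.9 and 6.8 on the vector arrays and 7.2 and 26.6 on the Cre arrays. Cre 2 alone was high there, and the pairs went opposite ways, by -0.37 and 0.96. Its difference was 0.30 ± 0.41.

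The chymase genes and Cpa3, all granule proteases of connective tissue mast cells, gave no shared call. Cma1, the mouse alpha-chymase gene (mMCP-5), read 15.3 and 26.9 units on vector 1 and 2 and 42.3 and 6.6 on Cre 1 and 2. The highest and the lowest value were both Cre arrays, so the difference of -0.20 ± 0.45 is the mean of pairs of 0.66 and -1.05. Mcpt4, which encodes the chymase mMCP-4, read 2.5 and 14.1 on the vector arrays and 3.9 and 4.1 on the Cre arrays. Vector 2 was the highest, and the difference was -0.33 ± 0.31 (95% interval -1.10 to 0.44). Cpa3, the carboxypeptidase that is stored with the chymases, read 43.5 and 24 on vector 1 and 2 and 43.3 and 15.5 on Cre 1 and 2. In both groups the array numbered 1 was the brighter, and Cpa3 differed by -0.32 ± 0.33 between the genotypes (pairs -0.22 and -0.41).

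Kit, the receptor for stem cell factor, had 2 probe sets that disagreed in direction. Probe set 1415900_a_at read 29.2 and 15.7 units on vector 1 and 2 and 14.9 and 23.4 on Cre 1 and 2. Probe set 1452514_a_at read 17.1 and 23.6 on the vector arrays and 40.8 and 21.4 on the Cre arrays. The groups overlapped in both, and the differences were -0.19 ± 0.33 and 0.21 ± 0.30. The pairs of each probe set also pointed opposite ways, -0.69 and 0.31 for the former and 0.54 and -0.12 for the latter.

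The IgE receptor chains gave unlike values, and a difference between them was not tested. Fcer1a read 14.2 and 11.1 units on vector 1 and 2 and 18.5 and 1.5 on Cre 1 and 2, so the Cre arrays held both the highest and the lowest value (difference -0.36 ± 0.30, pairs 0.03 and -0.76). Ms4a2 was higher on both Cre arrays than on both vector arrays in each of its probe sets. Probe set 1443264_at read 2 on both vector arrays and 34.3 and 26 on Cre 1 and 2. Its difference was 1.29 ± 0.20 (95% interval 0.78 to 1.80), or 2.44-fold, with pairs of 1.22 and 1.36. At an unadjusted p of 0.0011 in limma it did not pass over all 45037 probe sets (limma adjusted p = 0.76, and 0.152 when arrays of 1 number were fitted as a block). The size of this difference depends on the pseudocount, at 3.20 with 1 and 0.48 with 64 in place of 16. Probe set 1421475_at read 42.4 and 15.1 on the vector arrays and 65.8 and 44.1 on the Cre arrays. The margin between the groups was narrow there, 42.4 for vector 1 against 44.1 for Cre 2, and the difference was 0.62 ± 0.36 (95% interval -0.29 to 1.53; pairs 0.27 and 0.97). Even on the Cre arrays each Ms4a2 signal lay below the median of its array.

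Hdc, the histidine decarboxylase that makes histamine, was dim in both of its probe sets. Probe set 1451796_s_at read 5.1 and 4.4 units on vector 1 and 2 and 8.3 and 6 on Cre 1 and 2. The groups did not overlap, but the difference was only 0.09 ± 0.15. Probe set 1454713_s_at read 1.5 and 3.9 on the vector arrays and 2.3 and 3.3 on the Cre arrays, with overlapping groups and a difference of -0.03 ± 0.16.

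Taking the 7 genes other than the tryptases, the 10 probe sets showed no common rise beside that of Tpsab1. Their median difference was -0.11, with 0.05 within number 1 and -0.095 within number 2. It turned positive when Cre 1 (0.09), vector 2 (0.099) or Cre 2 (0.04) was left out. The median over all probe sets was -0.01, and over the probe sets below the level filter -0.002. Of the 10, 4 had a positive difference, against 48.1% of all probe sets, and 6 changed sign between the replicate numbers. None passed limma, 0 of 10 at an adjusted p under 0.05 without the level filter, where 0% of all probe sets were called in either direction. At an unadjusted p under 0.05 there was 1, the Ms4a2 probe set named above, against 4.72% of all probe sets. Under the replicate block the count was again 0 adjusted, where 0.155% of all probe sets rose and 0.0311% fell, and 1 unadjusted, against 10.5% of all. With no overlap between the groups after normalization, 3 of the 10 were higher in Cre and 0 lower, both probe sets of Ms4a2 and 1 of Hdc. Among all probe sets 15.1% were higher and 16% lower by that criterion. At 2-fold or more, 1 of the 10 was higher, against 1.31% of all, and 0 were lower, against 0.682%.

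The 12 probe sets other than Tpsab1 lay below the array median on all 4 arrays, as did 43.9% of probe sets on the array. Their signals ran from 1.5 to 65.8 units and their percentiles from 2.87 to 47. Only Tpsab1 of the 13 passed the level filter, that is, had a mean level in the upper part of the array, from the 50th percentile up. Over the 22519 probe sets that passed, limma called 0.00888% as higher without the pairing. With 2 arrays a group, the intervals above leave room for changes of up to 0.37 to 1.80 on the log2 scale at their upper ends, so small rises in these dim genes were not detectable.

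**Figure D2:**
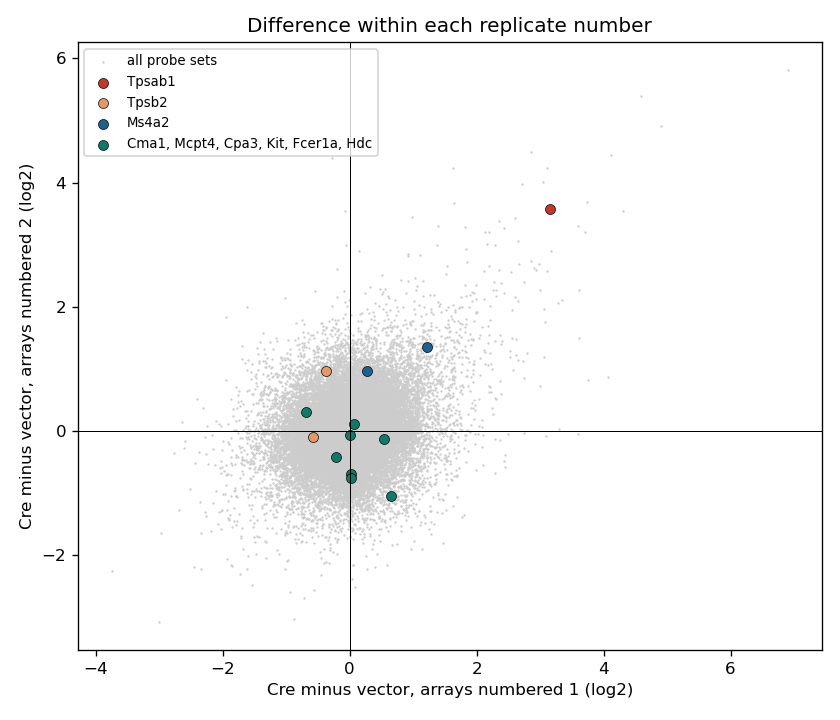
Cre minus vector within arrays numbered 1 (horizontal) and numbered 2 (vertical), both in log2 units, for all 45037 probe sets (grey) and the 13 mast cell probe sets (coloured). Tpsab1 lies at 3.16 and 3.57, the Ms4a2 probe set 1443264_at at 1.22 and 1.36, and the points of the other genes scatter around 0.

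Other genes of mast cells were examined through lists of 4 kinds. Among 28 further mast cell genes, 22 were measured by 30 probe sets, with a median difference of -0.002. At 2-fold or more without overlap, 2 were higher and 1 was lower, against 1.31% and 0.682% of all probe sets. Ltc4s, the synthase of leukotriene C4, a lipid mediator that mast cells release, read 11.6 and 11.4 units on vector 1 and 2 and 128 and 76.8 on Cre 1 and 2. It was 3.98-fold higher (1.99 ± 0.31; pairs 2.20 and 1.78). Alox5, the 5-lipoxygenase that acts upstream of Ltc4s, read 17 and 33.7 on the vector arrays and 101.5 and 87.6 on the Cre arrays, a difference of 1.32 ± 0.40. Ltc4s and Alox5 were higher on each Cre array than on either vector array, but neither passed over all probe sets (limma adjusted p = 0.76 and 0.941, and 0.125 and 0.268 with the replicate block). Alox5ap, the protein that presents the substrate to 5-lipoxygenase, read 72.8 and 62.7 on the vector arrays and 141.9 and 51.2 on the Cre arrays. Its groups overlapped and its pairs went opposite ways, by 0.74 and -0.27 (0.23 ± 0.40). Mast cells share these genes with other leukocytes.

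Tpsg1, which encodes the membrane-anchored gamma tryptase and lies next to Tpsb2, went the other way. It read 51.1 and 46.1 units on vector 1 and 2 and 12.5 and 4.5 on Cre 1 and 2, with no overlap. That was 2.93-fold lower (-1.55 ± 0.27; pairs -1.33 and -1.77), and did not pass (limma adjusted p = 0.796, and 0.176 with the replicate block). Of the 7 probe sets of this list that passed the level filter, 0 were called by limma, 0 with the block and 0 at an unadjusted p under 0.05, against 4.13% of all that passed. Over its 30 probe sets 3 had an unadjusted p under 0.05, those of Ltc4s, Alox5 and Tpsg1, against 4.72% of all probe sets.

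The 16 transcription factors of the mast cell lineage, with 26 probe sets, showed a median difference of 0.03 and none at 2-fold or more without overlap. Limma called 0 of the 16 probe sets that passed the filter, also with the block. At an unadjusted p under 0.05 there were 0 as well, against 4.13% of all that passed. Over the 26 there was 1, close to the 4.72% of all probe sets. That was the haematopoietic cofactor gene Lmo2, which read 12.4 and 3.5 units on vector 1 and 2 and 29.4 and 18.2 on Cre 1 and 2. It was dim but higher on both Cre arrays, by 0.67 ± 0.25 (limma unadjusted p = 0.0399, adjusted p = 0.999). Gata2, which specifies mast cell progenitors and is also known as a restraint on adipogenesis, read 977 and 921 units on vector 1 and 2 and 956 and 752 on Cre 1 and 2 in its brightest probe set. The groups overlapped and the difference was -0.12 ± 0.20. The second Gata2 probe set (1428816_a_at) read 543 and 562 on the vector arrays and 420 and 484 on the Cre arrays, both lower, with a difference of -0.29 ± 0.24. Tfe3, a relative of the mast cell regulator MITF, differed by -0.04 ± 0.21, and Bhlhe40, a basic helix-loop-helix repressor, by 0.48 ± 0.54.

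Genes of IgE receptor and KIT signalling numbered 20, of which 18 were measured by 48 probe sets with a median difference of 0.008. Syk, the kinase that couples the IgE receptor to its signal and that many other cells also use, read 220 and 149 units on vector 1 and 2 and 488 and 344 on Cre 1 and 2. Both Cre arrays were higher, and the difference was 1.08 ± 0.26 (pairs 1.13 and 1.04). Without the pairing Syk did not pass (limma adjusted p = 0.645), and with the replicate number as a block it rose (limma adjusted p = 0.0137). It was the only 1 of 24 filtered probe sets of this list called in that model, where 2.29% of all tested probe sets rose and 0.853% fell. A second Syk probe set (1418262_at) gave the same size, 1.08 ± 0.37, while 2 dim ones gave 0.26 ± 0.34 and -0.58 ± 0.19. Lcp2, the adaptor SLP-76, differed by 1.03 ± 0.46 in 1 probe set and by -0.07 ± 0.41 in the other. Without the block limma called 0 of the 24. At an unadjusted p under 0.05 there were 2, the 2 brighter probe sets of Syk, against 4.13% of all that passed the filter. Over the 48 there were 3, against 4.72% of all probe sets. The third was the dim Syk probe set 1457239_at, which was lower in Cre without overlap (-0.58 ± 0.19, limma unadjusted p = 0.0269).

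Markers of blood cells were followed beside these results, because mast cells and other leukocytes share them. Of 20 genes, 17 were measured by 29 probe sets, 21 of which lay below the array median on all 4 arrays. Their median difference was 0.095, with 0.10 within number 1 and -0.07 within number 2. Their summed signal, before normalization, was 1136 and 1252 units on vector 1 and 2 and 1731 and 1432 on Cre 1 and 2. Ptprc, the pan-leukocyte marker CD45, read 0.5 and 5.8 on the vector arrays and 0.9 and 1.5 on the Cre arrays in 1 probe set. The second Ptprc probe set (1440165_at) read 10.1 and 11.9 on the vector arrays and 2.9 and 4.5 on the Cre arrays. It was dim and lower in Cre without overlap, with a difference of -0.52 ± 0.20 (pairs -0.51 and -0.54). In limma over all probe sets its unadjusted p was 0.0409 and its adjusted p 0.999. It was the only 1 of the 29 at an unadjusted p under 0.05 in that fit, against 4.72% of all. Cd53, a leukocyte tetraspanin gene, read 120 and 138 on vector 1 and 2 and 226 and 327 on Cre 1 and 2 (difference 0.93 ± 0.37). It did not pass without the pairing and rose with the block (limma adjusted p = 0.999 and 0.0451), as the only 1 of 7 filtered probe sets called, where 2.29% of all tested probe sets rose. Csf1r, the macrophage growth factor receptor gene, differed by 0.36 ± 0.32, 0.14 ± 0.29 and -0.20 ± 0.52 in its 3 probe sets. Cd68, another macrophage gene, differed by 0.25 ± 0.41 and the myeloid integrin gene Itgam by -0.05 ± 0.20. Coro1a, a leukocyte actin-binding protein gene, ran from -0.74 to 0.093 in its 3 probe sets. Laptm5 and Cd52, also of this list, went up. Every Laptm5 probe set was positive, from 0.15 to 0.52, and only in 1436905_x_at did the groups overlap. Cd52 read 10 and 6.1 on the vector arrays and 40.2 and 14 on the Cre arrays (difference 0.67 ± 0.27). Neither gene passed over all probe sets (limma adjusted p = 0.999). Whether blood cell RNA has a part in the Tpsab1 signal was not tested.

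**Figure D3:**
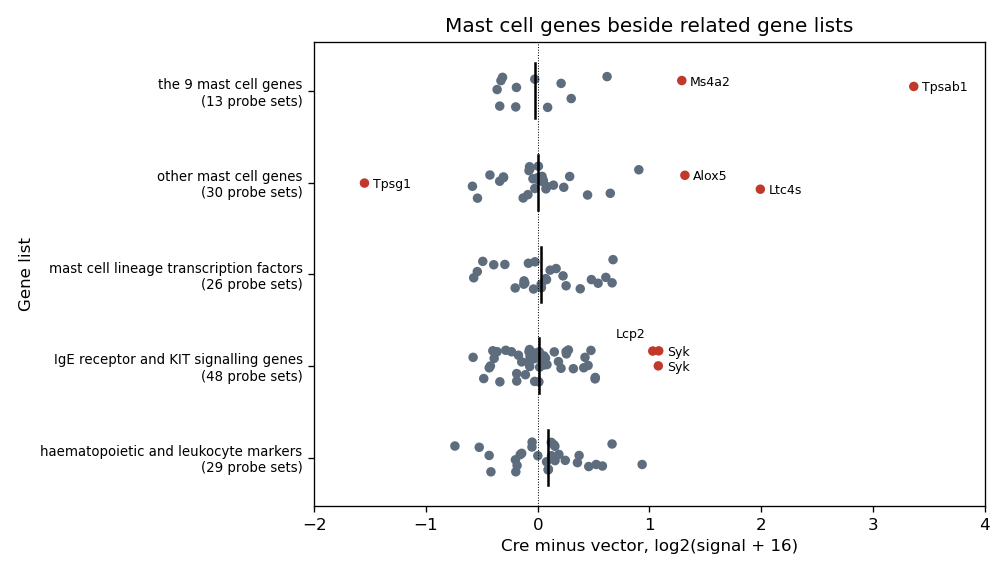
Cre minus vector, in units of log2(signal + 16), for every probe set of the 9 mast cell genes and of the 4 related lists; black bars are list medians, and red points are at least 2-fold apart with no overlap of the groups. The red points above 0 are Tpsab1 at 3.37, Ltc4s at 1.99, Alox5 at 1.32, Ms4a2 at 1.29, Syk at 1.08 in 2 probe sets and Lcp2 at 1.03, and the red point below 0 is Tpsg1 at -1.55.

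No measured gene beside the tryptases in RefSeq order showed a rise of the size of that of Tpsab1. Of 24 genes, 12 on each side of the Tpsab1 and Tpsb2 pair, 14 had a probe set with 1 symbol, 19 probe sets in all. Their differences ran from -1.55 (Tpsg1) to 0.65 (Lmf1), with a median of 0.08. Only 5 of the 19 passed the level filter. None was at least 2-fold higher without overlap, against 1.31% of all probe sets, and 1, Tpsg1, was lower, against 0.682%. The serine protease genes Prss28 and Prss29 on the near side of Tpsab1 differed by -0.02 and by -0.13 to 0.21. Beside and between the chymase genes, 18 of 30 genes were measured by 26 probe sets, which ran from -0.91 to 0.90, with 0 at 2-fold or more without overlap in either direction. The highest was Mcpt8, a basophil protease gene, which read 292 and 109 units on vector 1 and 2 and 291 and 488 on Cre 1 and 2. Cre 2 alone was high there, with pairs of -0.07 and 1.88.

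**Figure D4:**
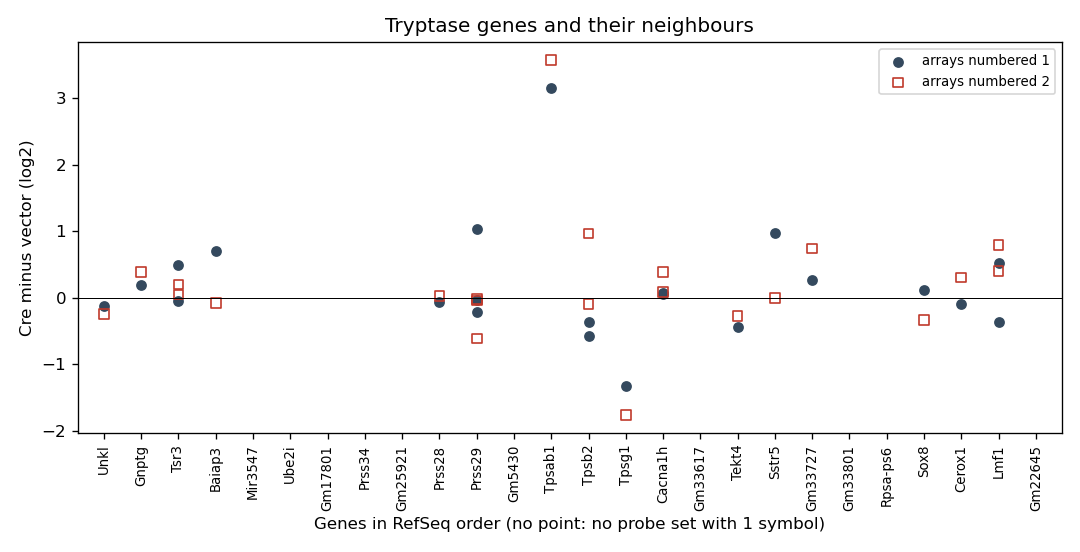
Cre minus vector within arrays numbered 1 (filled circles) and numbered 2 (open squares), in log2 units, for the genes around Tpsab1 and Tpsb2 in RefSeq order, with genes lacking a probe set left blank. Tpsab1 lies at 3.16 and 3.57 and Tpsg1, on the far side of Tpsb2, at -1.33 and -1.77.

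The pattern of Tpsab1 over the 4 arrays was closest to those of 4 genes with large differences of their own. Likeness was the Euclidean distance between the 4 log2 values after each probe set's mean was taken off, over 19787 other probe sets with 1 symbol that passed the filter. The closest was Ifi27l2a, an interferon-inducible gene, at a distance of 0.34. Next came Mndal, of the interferon-inducible p200 family, at 0.64 and again at 0.71 in a second probe set. Afp, the alpha-fetoprotein gene, followed at 0.69 and Kcnmb1, a potassium channel subunit gene, at 0.78. Afp read 16.1 and 11.3 units on vector 1 and 2 and 236 and 638 on Cre 1 and 2, and differed by 3.67 ± 0.57. With 4 arrays this likeness describes a shared rise of similar size and nothing more, and since these genes were picked by it, they are given without a test.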

How the data were processed

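Total RNA of 2 vector and 2 Cre samples was hybridized to Affymetrix arrays. Per the submitters' processing notes the deposited signal intensity values come from MAS5, with no version or settings stated. Each deposited array had a mean of 500 after trimming 2% at each end. The 64 control probe sets were left out. Of 45037 others, 34945 had 1 symbol, 932 several and 9160 none in the platform annotation. Array medians differed by 0.497 in log2(signal + 16), above the limit of 0.2, so arrays were quantile normalized. Differences come from limma 3.58.1 in R 4.3.3 (lmFit, then eBayes with trend), with Benjamini-Hochberg adjustment at 0.05 over all probe sets: the 22519 at or above the 50th percentile of the mean, or, for the members, of which 12 were below it, all 45037. The fit was tested on simulated data. With 2 arrays against 2, the smallest two-sided p of an exact permutation test is 0.333.

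The labels do not say what a replicate number stands for. After group means were taken off, arrays of 1 number correlated at 0.603 over tested probe sets. Xist read 11049 and 9810 units in number 1 and 41.8 and 58 in number 2, and on that ground arrays of 1 number were treated as a pair. That model is named where it changes a call among the genes tested. Among the preadipocyte markers it called 2 of 11 filtered probe sets as higher in Cre, where 2.29% of all tested probe sets rose. Both were of the collagen gene Col3a1 (limma adjusted p = 0.0155 and 0.0113, against 0.999 for each without the block). Members and lists were chosen with earlier results of these data known. Genes named beyond the 9 members were those of each list 2-fold apart without overlap, otherwise its brightest 3, and the 5 nearest in pattern. Ptprc, Mcpt8, Alox5ap, Lmo2, Itgam, Coro1a, Laptm5, Cd52, Pdgfra and others were named after their values were seen. Alternatives were other pseudocounts, filters, scalings and variance models, the block, and leaving out each array.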

Additional observations from a re-analysis of the deposited data

How the results depend on the processing

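The Tpsab1 difference led to the choice of the set, so its values here describe its size and are no support for it. It was positive in all 11 alternatives run for it, from 2.78 with a pseudocount of 64 to 3.80 without Cre 1. Without Cre 2 it was 2.93. The 1.29 of Ms4a2 (1443264_at) was positive in all 11 too, from 0.48 to 3.20 with the pseudocount, and passed in none. The median of the 10 other probe sets was -0.23 with a pseudocount of 1 and -0.00175 with the values as deposited, and ran from -0.094 without vector 1 to 0.099 without vector 2, so its sign is not settled. Signs turned, with no call in any setting, for Hdc 1454713_s_at (0.0102 with the values as deposited; -0.15 to 0.097 with 1 array left out), and for Kit (-0.0315 to 0.45 and -0.54 to 0.15), Mcpt4 (-0.756 to 0.097), Cma1 (-0.71 to 0.31) and Fcer1a (-0.744 to 0.0169) when 1 array was left out. Over all probe sets, 2 were called as planned, 0 without the level filter, 1 with the 75th percentile filter, 1 with a pseudocount of 1, 16 with median centring, 0 without the intensity trend, 1 without probe sets ending in _s_at or _x_at, 708 with the replicate block, and 6 (without Cre 1) to 32 (without vector 1) with 1 array left out, 24 without vector 2 and 16 without Cre 2. The block called 0 of the 10 non-tryptase probe sets. Tpsb2 (1422180_a_at), given without a test, was -0.28 without Cre 2 and 0.88 without Cre 1. With 2 arrays a group and dim signals, small differences are beyond the reach of these data. Larger ones in dim probe sets can go uncalled as well.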
